A study of Drosophila melanogaster with 23 samples.

Results

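Hearts of Drosophila melanogaster labelled LamC RNAi and taken at 1 week of age were compared with hearts of the attp2 control strain taken at 5 weeks, over all genes with enough counts. The comparison uses 10 of the 23 heart libraries of the series, 5 labelled LamC RNAi at 1 week (strain given as attp2 with LamC iR) and 5 of attp2 at 5 weeks. The RNAi was driven by the heart-specific Hand promoter. Hand is a transcription factor gene active in heart muscle and pericardial cells. Whether the RNAi also acted in other cells that stay on a dissected heart was not tested. The sources used here do not say whether the attp2 controls carried the driver, what sex the flies were or how many hearts made a library. The series asked, among other questions, which genes change both with age in attp2 and with Lamin C RNAi, and this comparison sets the young RNAi hearts directly against the old control hearts. Age and RNAi differ together in it and cannot be told apart from these 10 libraries alone. The 5 attp2 libraries at 1 week have the age of one group and the strain of the other, so their levels are given last beside each result; a comparison with them shares libraries with the main one and is no independent evidence.

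Lamins are intermediate filament proteins that line the inner face of the nuclear envelope, where they anchor chromatin, hold nuclear pores in place and connect the nucleus to the cytoskeleton. Drosophila has an A-type lamin, encoded by LamC, and a B-type lamin, encoded by Lam. In human families, mutations of the A-type lamin gene cause cardiomyopathy and muscular dystrophy, and the fly heart, a muscular tube along the back of the abdomen, is used as a simple model of cardiac ageing. That tube is a single layer of cardiomyocytes flanked by pericardial nephrocytes, alary and ventral longitudinal muscle, fat body and oenocytes, and blood cells settle on it.

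RNA was sequenced as polyadenylated bulk RNA, so that fewer cells of a type and less RNA per cell cannot be told apart. Levels are in CPM, counts of a gene per M (mega) counts of its library, on the TMM scale, a scaling that sets the bulk of genes equal between libraries. Total counts were 48.1 to 74.2 M in the libraries labelled LamC RNAi, 48.3 to 90 M in attp2 at 5 weeks and 45.1 to 77.1 M in attp2 at 1 week. Markers of the heart were present in both groups: Hand averaged 333 ± 73.7 CPM in hearts labelled LamC RNAi and 294 ± 73.3 CPM in attp2 at 5 weeks (SD, n = 5 each), H15 47.5 and 43.2 CPM, and tin, the fly NKX2-5 gene, 3.97 and 4.81 CPM. Cyp4g1, an oenocyte cytochrome P450, was the most abundant transcript of every library, with 7.5 to 14.3% of counts in hearts labelled LamC RNAi and 11.2 to 13.8% in attp2 at 5 weeks. The summed level of 28 gut genes, 25 of them tested, set 4 libraries apart. They were replicate 3 labelled LamC RNAi (875 CPM), replicates 3 and 4 of attp2 at 5 weeks (22300 and 1090 CPM) and replicate 3 of attp2 at 1 week (15300 CPM). The highest of the others had 105 CPM. Replicate 3 labelled LamC RNAi also had 1120 CPM of ovary genes, against at most 85.9 CPM in the other libraries of its group. Counts that rest on these 4 libraries are given below with and without them.

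The targeted transcript did not set the groups apart. LamC (chromosome 2R from 14570810 to 14575771 in dm6 coordinates, as are all positions below) had 155, 199, 87.4, 172 and 132 CPM in the libraries labelled LamC RNAi, against 148, 185, 118, 122 and 127 CPM in attp2 at 5 weeks. The ranges overlapped, and replicate 3 labelled LamC RNAi was the lowest of all. On average LamC had 149 ± 42.4 CPM in hearts labelled LamC RNAi and 140.1 ± 27.8 CPM in attp2 at 5 weeks (SD, n = 5 each), and 171 CPM in attp2 at 1 week. The log2 fold change of 0.09 ± 0.20 (SE) had 95% bounds of −0.34 and 0.52 and was within the spread between libraries (edgeR adjusted p = 0.779; exact two-sided permutation p = 0.802, where 0.00794 is the smallest that 5 against 5 libraries allow). It turned to −0.04 without replicate 2 labelled LamC RNAi and to −0.12 with a covariate for heat shock genes. The label was therefore not checked by the transcript, and LamC RNAi below is the name that the libraries carry. Lam (chromosome 2L from 5542480 to 5546642) had 26.7, 26.2, 47.3, 25.9 and 34.5 CPM in hearts labelled LamC RNAi, against 26.2, 23, 24.6, 25.8 and 26.8 CPM in attp2 at 5 weeks. Only replicates 3 and 5 labelled LamC RNAi stood above the 5-week range, and the difference did not pass (log2 fold change 0.34 ± 0.14, edgeR adjusted p = 0.108; exact permutation p = 0.103).

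**Figure D1:**
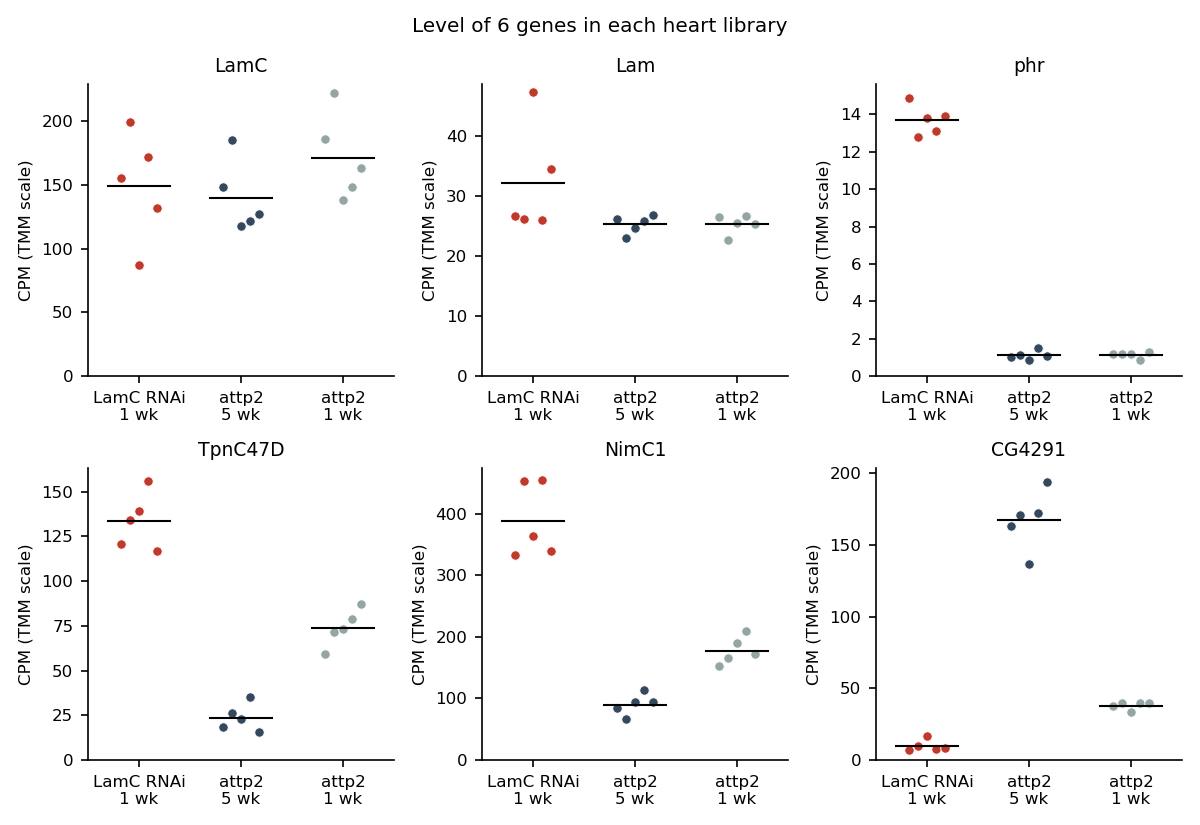
Level of 6 genes in CPM on the TMM scale (vertical axes, linear and starting at 0) in each of the 5 libraries labelled LamC RNAi at 1 week, 5 of attp2 at 5 weeks and 5 of attp2 at 1 week; points are libraries and lines are group means. LamC and Lam overlap between the first 2 groups, phr lies between 12.8 and 14.9 CPM in hearts labelled LamC RNAi and at or below 1.49 CPM elsewhere, TpnC47D and NimC1 are highest in hearts labelled LamC RNAi, and CG4291 is lowest there.

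Of 10044 genes tested with edgeR's quasi-likelihood test at an adjusted p under 0.05, 1011 were higher in hearts labelled LamC RNAi (10.1%) and 919 were lower (9.15%) than in attp2 at 5 weeks. The median log2 fold change over all genes was 0.01. The groups did not overlap for 1307 genes (13%). Without the 4 libraries with gut transcripts 661 genes were higher and 640 lower, and 1057 of the 1930 called genes passed again. For scale, hearts labelled LamC RNAi had 87 genes higher (0.866%) and 155 lower (1.54%) than attp2 at 1 week, 242 in all (2.41%), and attp2 at 5 weeks had 964 higher (9.6%) and 1054 lower (10.5%) than attp2 at 1 week. Calls were spread over the genome, with 17.3% of tested genes on chromosome arm 3R and 20.5% on 2R called, and 32.9% of the 85 on the small chromosome 4, where 10 were higher and 18 lower. By size, 312 genes were higher (3.11%) and 240 lower (2.39%) by a log2 fold change of at least 1.

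**Figure D2:**
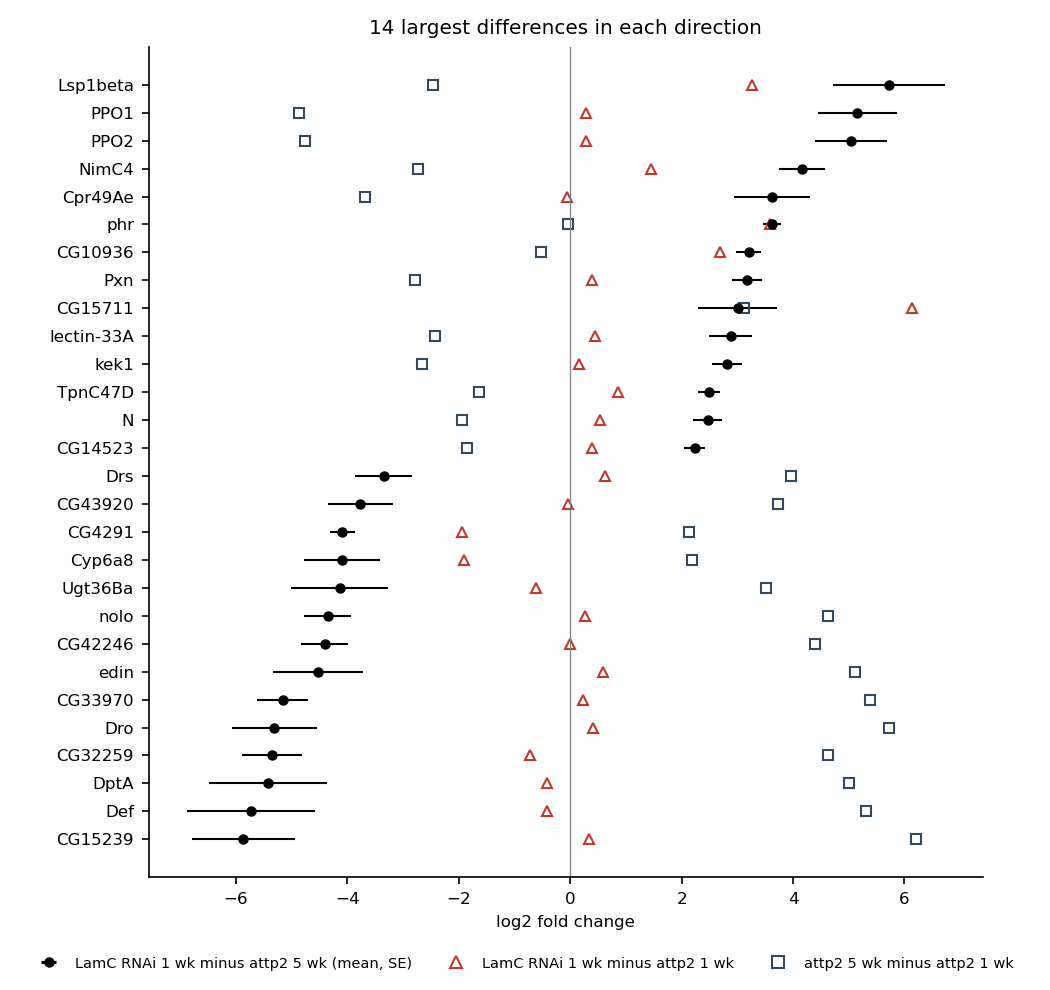
The 14 genes with the largest positive and the 14 with the largest negative log2 fold change (horizontal axis) among called genes whose 5 and 5 libraries did not overlap. Only genes with a mean of at least 10 CPM in the higher group were taken. Black points with bars are hearts labelled LamC RNAi minus attp2 at 5 weeks with the SE, red triangles are the same hearts minus attp2 at 1 week, and blue squares are attp2 at 5 weeks minus 1 week; the 3 contrasts share libraries. For phr and CG10936 the red triangle lies near the black point, and for most of the others it lies near 0.

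Genes of blood cells were among the largest positive differences. Crystal cells are blood cells that make prophenoloxidases, the enzymes that start melanization at wounds. PPO1 (chromosome 2R from 17887220 to 17889973) had 610, 932, 752, 1000 and 613 CPM in hearts labelled LamC RNAi, against 10.5, 76.8, 7.96, 9.68 and 4.88 CPM in attp2 at 5 weeks. Every library of the first group was several times above the highest of the second, which was replicate 2. The log2 fold change was 5.16 ± 0.70 (SE, edgeR adjusted p = 2.6e-04), and attp2 at 1 week had 574 to 681 CPM. Without replicate 2 of attp2 at 5 weeks it was 6.56. PPO2 (chromosome 2R from 9042261 to 9044709) had 533 to 910 CPM in hearts labelled LamC RNAi and 7.05 to 72.5 CPM in attp2 at 5 weeks, again with replicate 2 at the top (log2 fold change 5.04 ± 0.65, adjusted p = 1.7e-04; 6.31 without that replicate). lz, the Runx factor that specifies crystal cells, was higher too (log2 fold change 2.58 ± 0.50, adjusted p = 0.00298), at 4.37 CPM in hearts labelled LamC RNAi and 0.732 CPM in attp2 at 5 weeks, and by 3.42 without replicate 2 of attp2 at 5 weeks.

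Plasmatocytes, the phagocytes of the fly, had 11 of 12 tested marker genes higher and 1, crq, lower. Over all genes 10.1% were higher and 9.15% lower. NimC1 (chromosome 2L from 13973158 to 13976769), a phagocytosis receptor, had 333, 453, 363, 454 and 340 CPM in hearts labelled LamC RNAi, against 83.8, 65.9, 93.6, 113 and 94.3 CPM in attp2 at 5 weeks, and the groups lay far apart (log2 fold change 2.11 ± 0.15, adjusted p = 1.0e-06). It also lay above attp2 at 1 week, which had 153 to 209 CPM (log2 fold change 1.13, adjusted p = 0.001). NimC4, a receptor for the uptake of dead cells, had 34.6, 42.7, 15.6, 60.9 and 34.2 CPM in hearts labelled LamC RNAi, against 1.17, 2.26, 2.05, 1.38 and 3.56 CPM in attp2 at 5 weeks (log2 fold change 4.17 ± 0.42, adjusted p = 2.1e-05). Attp2 at 1 week had 9.42 to 23.1 CPM, above all of attp2 at 5 weeks and overlapping the hearts labelled LamC RNAi. Hml, the clotting protein hemolectin, differed by 1.94 ± 0.19, the scavenger receptor Sr-CI by 1.60 ± 0.15 and the receptor eater by 1.14 ± 0.15 on the log2 scale. The scavenger receptor gene crq went the other way (−0.49 ± 0.11, adjusted p = 0.00633). lectin-33A, a C-type lectin gene, had 509 to 1190 CPM in hearts labelled LamC RNAi and 63.6 to 230 CPM in attp2 at 5 weeks (log2 fold change 2.88 ± 0.38, adjusted p = 2.1e-04).

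The summed level of the 12 plasmatocyte genes was 11800, 14500, 11000, 14100 and 11000 CPM in hearts labelled LamC RNAi, against 4270, 3980, 5330, 6280 and 5800 CPM in attp2 at 5 weeks. That of the 4 crystal cell genes was 1330, 2010, 1510, 2140 and 1220 CPM, against 86.6, 216, 200, 179 and 169 CPM. Neither sum overlapped between the groups (log2 differences 1.29 and 3.29, both with an exact permutation p of 0.0206 after adjustment over 13 marker lists, where the unadjusted 0.00794 is the smallest possible). Attp2 at 1 week had 7860 to 9840 CPM of the plasmatocyte genes, below the hearts labelled LamC RNAi, and 1180 to 1650 CPM of the crystal cell genes, overlapping their range. Blood cells that cling to a dissected heart enter its library, and the part of blood cell number in these differences was not tested.

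**Figure D3:**
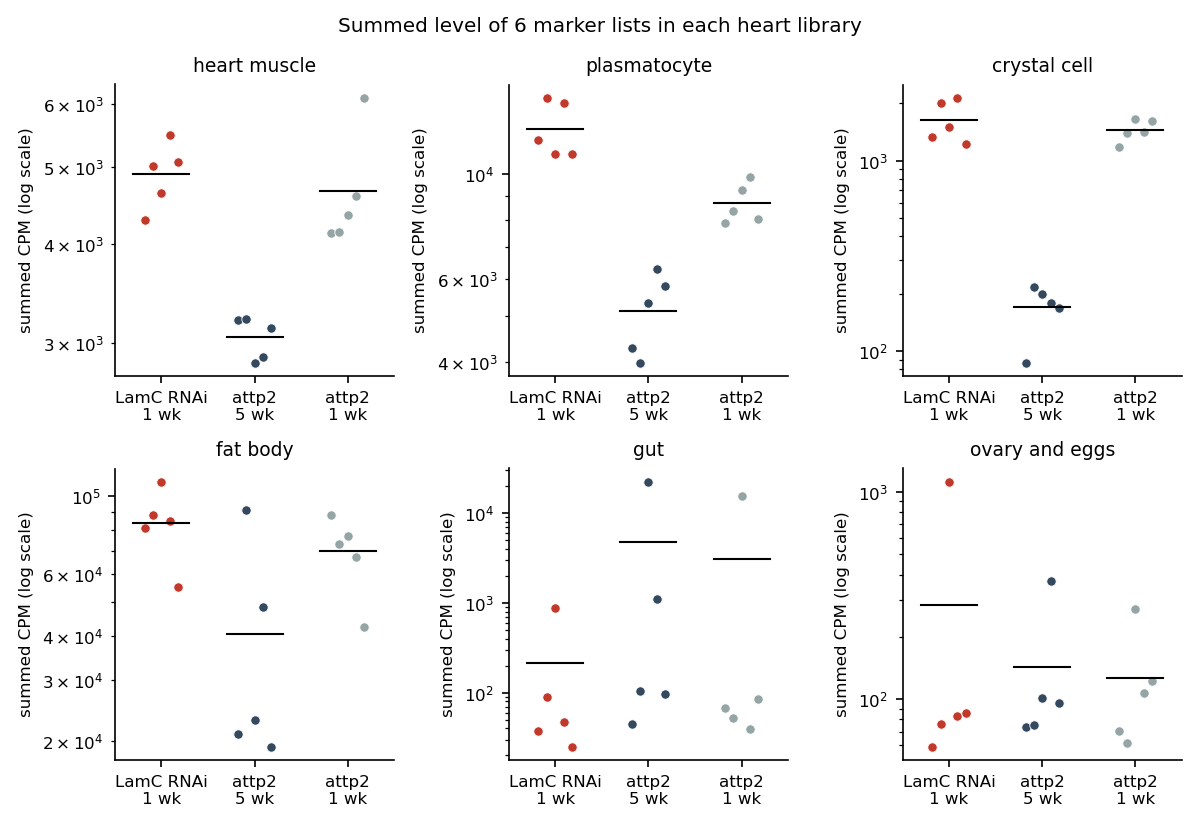
Summed level of 6 marker lists in CPM (vertical axes, log scale) in each library; points are libraries and lines are group means. Plasmatocyte and crystal cell sums do not overlap between hearts labelled LamC RNAi and attp2 at 5 weeks, nor does the heart muscle sum, which overlaps once Mhc is left out; replicate 2 of attp2 at 5 weeks has the highest fat body sum of its group (91100 CPM), and single libraries carry the gut and ovary sums.

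Antimicrobial peptide genes were among the largest negative differences. These secreted peptides are switched on by the Toll and Imd pathways, chiefly in the fat body. Of 29 tested genes 12 were lower and 1 was higher in hearts labelled LamC RNAi, with a median log2 fold change of −1.93, against 9.15% lower, 10.1% higher and a median of 0.01 over all genes. Dro (drosocin, chromosome 2R from 14745961 to 14746714) had 42.2, 42.5, 35.4, 25.4 and 19.1 CPM in hearts labelled LamC RNAi, against 2230, 2120, 690, 255 and 1240 CPM in attp2 at 5 weeks. The groups were well apart although the 5-week libraries spread widely (log2 fold change −5.31 ± 0.76, adjusted p = 3.6e-04), and attp2 at 1 week had 6.44 to 66.5 CPM. DptA (diptericin) had 26.3, 39.3, 72.4, 11.8 and 8.02 CPM in hearts labelled LamC RNAi, against 1520, 1690, 944, 343 and 2290 CPM in attp2 at 5 weeks (log2 fold change −5.43 ± 1.06, adjusted p = 0.00306). Drs (drosomycin, an antifungal peptide) had 64.7, 209, 150, 96.3 and 63.2 CPM in hearts labelled LamC RNAi, against 1730, 1910, 408, 873 and 1020 CPM in attp2 at 5 weeks (log2 fold change −3.35 ± 0.51, adjusted p = 5.4e-04). In both genes every 5-week library was higher than every library labelled LamC RNAi. Mtk (metchnikowin) differed by −2.80 ± 0.41, edin, induced by infection, by −4.53 ± 0.81 and Def (defensin) by −5.73 ± 1.16 on the log2 scale. Def was at −6.64 without replicate 2 labelled LamC RNAi and at −4.50 without replicate 2 of attp2 at 5 weeks. The attacin genes AttA and AttC were at −2.24 and −2.23 (adjusted p = 0.0193 and 0.0075), and AttA may share reads with its near-identical copy AttB. The exception was Drsl4, a drosomycin-like gene, at 2.54 ± 0.83 (adjusted p = 0.0453) and 19.5 CPM in hearts labelled LamC RNAi. Its call was lost without replicates 2, 3, 4 or 5 labelled LamC RNAi or replicates 1, 2, 3 or 5 of attp2 at 5 weeks (adjusted p 0.0537 to 0.0906), and it was at 3.67 without replicate 4 of attp2 at 5 weeks.

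The sum of the antimicrobial peptide genes was 2560, 4340, 2300, 2080 and 1720 CPM in hearts labelled LamC RNAi, against 13600, 15800, 7020, 4510 and 12000 CPM in attp2 at 5 weeks and 1040 to 3720 CPM in attp2 at 1 week. The fat body sum ran the opposite way, from 55100 to 110000 CPM in hearts labelled LamC RNAi and from 19300 to 91100 CPM in attp2 at 5 weeks, with overlap (adjusted exact permutation p = 0.0645, or 0.0129 and a log2 difference of 1.66 without replicate 2 of attp2 at 5 weeks). Of 36 genes for peptidoglycan recognition and Toll and Imd signalling, 9 were lower and 3 higher (median −0.05). Over all genes 9.15% were lower and 10.1% higher. PGRP-SC2, an amidase that breaks down peptidoglycan, had 19.7, 32.4, 30.7, 9.16 and 8.53 CPM in hearts labelled LamC RNAi, against 187, 229, 128, 114 and 289 CPM in attp2 at 5 weeks (log2 fold change −3.24 ± 0.45, adjusted p = 2.8e-04). PGRP-SB1, another amidase, differed by −1.49 ± 0.31, and PGRP-LE, an intracellular sensor of the Imd pathway, by −0.86 ± 0.15. PGRP-SC1a was listed at 0 in all 5 libraries labelled LamC RNAi and at 0.156 to 0.811 CPM in attp2 at 5 weeks, and may share reads with its near-copy PGRP-SC1b. The 3 higher calls became 1, 0, 5, 0, 1 and 1 without replicates 1 and 2 labelled LamC RNAi and replicates 2, 3, 4 and 5 of attp2 at 5 weeks, and 0 without the 4 libraries with gut transcripts.

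Many contractile genes were higher in hearts labelled LamC RNAi. Of 30 tested sarcomere and Z-disc genes 19 were higher and 0 lower, with a median of 0.42, against 10.1% higher over all genes, and 14 were higher without the 4 libraries with gut transcripts. TpnC47D (chromosome 2R from 11273845 to 11275286), a troponin C gene, had 121, 134, 139, 156 and 117 CPM in hearts labelled LamC RNAi, against 18.5, 26.5, 22.9, 35 and 15.5 CPM in attp2 at 5 weeks. The lowest RNAi library was more than 3 times the highest 5-week library (log2 fold change 2.50 ± 0.19, adjusted p = 2.2e-06). Attp2 at 1 week had 59.3, 71.6, 73.5, 78.6 and 87.4 CPM, also below every library labelled LamC RNAi; against this group TpnC47D differed by a log2 fold change of 0.85 (adjusted p = 0.0255). Mhc, the muscle myosin heavy chain gene, had 2370, 2920, 2590, 3010 and 2730 CPM in hearts labelled LamC RNAi, against 1120, 1440, 1220, 1260 and 1250 CPM in attp2 at 5 weeks (log2 fold change 1.11 ± 0.11, adjusted p = 2.4e-05), and 2280 to 3340 CPM in attp2 at 1 week. The muscle LIM protein genes Mlp84B and Mlp60A, whose products sit at the Z-disc, differed by 0.97 ± 0.07 and 1.21 ± 0.11 (adjusted p = 1.4e-06 and 1.1e-05). Mlp84B had 205, 240, 220, 256 and 242 CPM in hearts labelled LamC RNAi, against 112, 128, 124, 116 and 112 CPM in attp2 at 5 weeks, a tight pair of groups.

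Among the other contractile genes, Unc-89, the fly obscurin, differed by 1.01 ± 0.13, the troponin C gene TpnC25D by 1.07 ± 0.13, paramyosin (Prm) by 0.82 ± 0.10 and the actin gene Act87E by 0.68 ± 0.15 on the log2 scale. The Z-disc genes Zasp52 and Zasp66 were at 0.52 ± 0.07 and 0.54 ± 0.09. TpnC73F was not called (−0.22 ± 0.13, adjusted p = 0.247), nor was Act57B, the main actin of larval and cardiac muscle (0.35 ± 0.13, adjusted p = 0.0841). The summed level of the list was 14900, 16900, 15400, 17400 and 16400 CPM in hearts labelled LamC RNAi, against 11400, 12000, 10800, 10900 and 11700 CPM in attp2 at 5 weeks. Marker sums of muscle were higher too, but they share genes with the sarcomere list and are no separate evidence. The heart muscle list shares Mhc, Act57B and TpnC73F with it. The body wall and flight muscle list shares Act88F, Act79B, fln, TpnC4, TpnC41C, Prm, Tm2 and Mlc2. The 8 heart muscle markers summed to 4280 to 5490 CPM in hearts labelled LamC RNAi and 2830 to 3210 CPM in attp2 at 5 weeks, and 1 of them, Mhc, was called. That gap rested on Mhc, which is in both lists: without it the heart muscle sums were 1910 to 2480 CPM in hearts labelled LamC RNAi and 1610 to 2080 CPM in attp2 at 5 weeks, which overlapped and did not pass (log2 difference 0.28, adjusted exact permutation p = 0.103), and the median log2 fold change of the 8 genes was 0.16. The sarcomere sums did not overlap without Mhc either, at 12500 to 14400 and 9540 to 10500 CPM. The 8 tested body wall and flight muscle markers summed to 2930 to 3350 and 2110 to 2340 CPM, with 3 higher and 1 lower. The flight muscle actin Act88F was near 0, at 0.424 CPM in hearts labelled LamC RNAi and 0.415 CPM in attp2 at 5 weeks. The share of muscle RNA in these libraries was not tested apart from these lists.

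**Figure D4:**
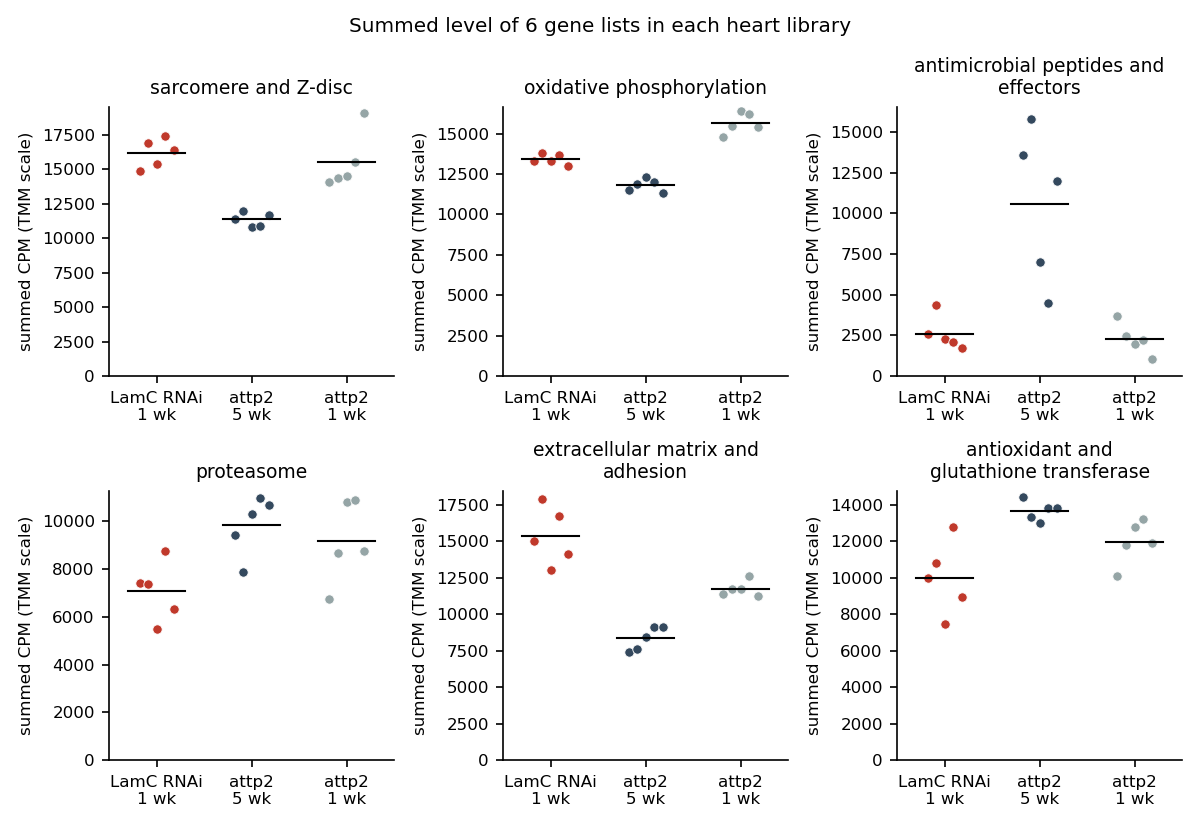
Summed level of 6 gene lists in CPM on the TMM scale (vertical axes, linear and starting at 0) in each library; points are libraries and lines are group means. The sarcomere, matrix and oxidative phosphorylation sums are higher in every library labelled LamC RNAi than in any of attp2 at 5 weeks, the antimicrobial and antioxidant sums are lower, and the proteasome sums overlap.

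Some genes of the heartbeat were higher. Of 40 tested calcium handling and ion channel genes 15 were higher and 1 was lower, against 10.1% and 9.15% over all genes, while 24 were not called (median 0.21), and 9 were higher without the 4 libraries with gut transcripts. Shab, a delayed rectifier potassium channel, had 19.4, 18.7, 17.4, 17.5 and 18.4 CPM in hearts labelled LamC RNAi, against 12.5, 11.4, 10.2, 11.9 and 13.2 CPM in attp2 at 5 weeks (log2 fold change 0.63 ± 0.09, adjusted p = 2.7e-04). It was also above attp2 at 1 week, with 11.9 to 15.2 CPM (log2 fold change 0.49, adjusted p = 0.0101). Ca-alpha1D, the L-type calcium channel, had 46.8, 48.7, 46.5, 53.2 and 47.1 CPM in hearts labelled LamC RNAi, against 25.3, 39.2, 25.8, 28.3 and 33.2 CPM in attp2 at 5 weeks (log2 fold change 0.68 ± 0.11, adjusted p = 7.4e-04). RyR, the calcium release channel of the sarcoplasmic reticulum, had 162 to 198 CPM in hearts labelled LamC RNAi and 95.1 to 139 CPM in attp2 at 5 weeks (log2 fold change 0.68 ± 0.12, adjusted p = 0.0012). The calcium-activated potassium channel slo differed by 1.53 ± 0.26, the leak channel Ork1 by 1.39 ± 0.30, the sodium channel NaCP60E by 0.84 ± 0.12 and the gap junction gene shakB by 0.55 ± 0.13 on the log2 scale. sei, the fly hERG potassium channel, was the lower one (−0.71 ± 0.14, adjusted p = 0.0027), and 2 were lower without replicate 4 of attp2 at 5 weeks.

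Most cardiac transcription factors were not called. Of 19 tested, 3 were higher and 0 lower, against 10.1% higher and 9.15% lower over all genes. Their median was 0.22, against 0.01 over all genes, and 15 had positive log2 fold changes. Doc3, a T-box gene of the dorsal mesoderm, averaged 4.57 ± 0.693 CPM in hearts labelled LamC RNAi and 2.72 ± 0.504 CPM in attp2 at 5 weeks (log2 fold change 0.75 ± 0.19, adjusted p = 0.0142). srp, a GATA factor of blood cells and fat body, averaged 158 ± 29.3 and 113 ± 10.3 CPM (log2 fold change 0.48 ± 0.12, adjusted p = 0.0111). org-1, the fly Tbx1, was at 0.78 ± 0.22 (adjusted p = 0.0262), and lost its call without replicate 3 or 5 labelled LamC RNAi (0.0525 and 0.0625) or replicate 1 or 5 of attp2 at 5 weeks (0.0558 and 0.0587). Hand, tin and H15 were not called, with log2 fold changes of 0.18 ± 0.21, −0.28 ± 0.16 and 0.14 ± 0.13, and Hand was at −0.000778 without the 4 libraries with gut transcripts.

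Extracellular matrix genes were called in both directions, more often higher. Basement membrane wraps the heart tube, and in flies much of it is secreted by fat body and blood cells. Of 43 tested matrix and adhesion genes 15 were higher, 5 lower and 23 not called, against 10.1% higher and 9.15% lower over all genes (median 0.31), and 15 and 6 without the 4 libraries with gut transcripts. SPARC, a collagen-binding protein gene, had 816, 955, 657, 813 and 658 CPM in hearts labelled LamC RNAi, against 280, 343, 266, 323 and 324 CPM in attp2 at 5 weeks (log2 fold change 1.34 ± 0.12, adjusted p = 1.2e-05). Pxn, a matrix peroxidase also used as a plasmatocyte marker, had 281, 456, 324, 490 and 332 CPM in hearts labelled LamC RNAi, against 21, 54.7, 45.7, 60.9 and 26.7 CPM in attp2 at 5 weeks (log2 fold change 3.17 ± 0.27, adjusted p = 6.7e-06). LanB2, the laminin gamma chain gene, had 207, 264, 190, 251 and 216 CPM in hearts labelled LamC RNAi, against 125, 127, 130, 138 and 139 CPM in attp2 at 5 weeks (log2 fold change 0.78 ± 0.09, adjusted p = 7.3e-05). Attp2 at 1 week was below the hearts labelled LamC RNAi for LanB2, at 147 to 183 CPM (log2 fold change 0.51, adjusted p = 0.0103). All 3 genes were higher in every library labelled LamC RNAi than in any of attp2 at 5 weeks. The collagen IV genes Col4a1 and vkg differed by 1.01 ± 0.14 and 1.11 ± 0.14, the laminin genes LanA and LanB1 by 1.27 ± 0.15 and 1.32 ± 0.16, and papilin (Ppn) by 1.56 ± 0.19 on the log2 scale. The plasmatocyte sums given above moved with these genes, and Col4a1, vkg, Pxn and Ppn stand in both lists.

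Among the 5 lower genes were nolo, an ADAMTS-like protein gene, CG4096, a metalloprotease gene, Timp, an inhibitor of such proteases, and NetA, a netrin gene. nolo (chromosome 2L from 21684106 to 21729051) had 1.22, 0.484, 1.93, 0.516 and 1.17 CPM in hearts labelled LamC RNAi, against 31.6, 19, 16.1, 19.4 and 22.5 CPM in attp2 at 5 weeks. It was low in every library of the first group, and attp2 at 1 week had 0.402 to 1.41 CPM (log2 fold change against 5 weeks −4.35 ± 0.42, adjusted p = 1.8e-05). CG4096 differed by −1.63 ± 0.28, Timp by −0.61 ± 0.14 and NetA by −0.72 ± 0.10 on the log2 scale.

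**Figure D5:**
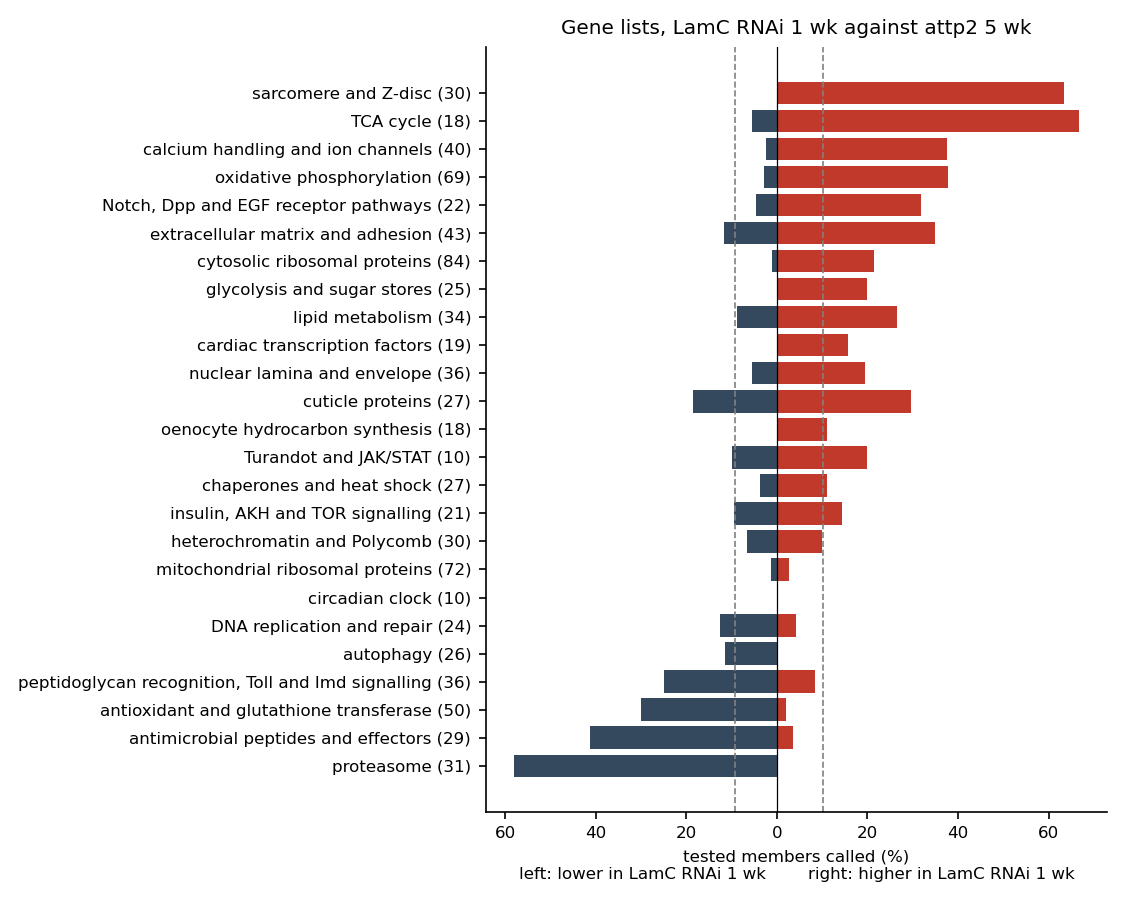
Percent of tested members of 25 gene lists that were called higher (bars to the right) or lower (bars to the left) in hearts labelled LamC RNAi than in attp2 at 5 weeks, with the number tested in brackets. Dashed lines are the shares over all genes, 10.1% higher and 9.15% lower; the sarcomere and TCA cycle lists reach farthest right and the proteasome list farthest left.

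Part of the genes of mitochondrial energy metabolism were higher in hearts labelled LamC RNAi than in attp2 at 5 weeks, by small amounts, and part were lower than in attp2 at 1 week. Of 69 tested oxidative phosphorylation genes, which encode the respiratory chain and ATP synthase, 26 were higher and 2 lower (median 0.12). Over all genes 10.1% were higher and 9.15% lower, with a median of 0.01. UQCR-C2, a core subunit of complex III, had 323, 345, 324, 331 and 336 CPM in hearts labelled LamC RNAi, against 231, 265, 247, 250 and 240 CPM in attp2 at 5 weeks and 390, 427, 462, 436 and 406 CPM in attp2 at 1 week. The 3 groups did not overlap, and the hearts labelled LamC RNAi lay in the middle. Their log2 fold change was 0.43 ± 0.06 against 5 weeks (adjusted p = 2.6e-04) and −0.35 against 1 week (adjusted p = 0.00656). ATPsynB, a stalk subunit of ATP synthase, had 241 to 270 CPM in hearts labelled LamC RNAi, 182 to 203 CPM in attp2 at 5 weeks and 283 to 330 CPM in attp2 at 1 week, in the same order. Its log2 fold change was 0.39 ± 0.06 against 5 weeks (adjusted p = 4.4e-04) and −0.26 against 1 week (adjusted p = 0.0329). blw, the ATP synthase alpha subunit, differed by 0.40 ± 0.07 against 5 weeks. The largest fold belonged to ND-B8, a complex I gene with 0.996 to 2.42 CPM in hearts labelled LamC RNAi and 0 to 0.116 CPM in attp2 at 5 weeks, far below the other subunits. ND-AGGG, another complex I gene, was 1 of the 2 lower ones (−0.37 ± 0.09, adjusted p = 0.00916). The other lost its call without replicates 1 or 5 labelled LamC RNAi or replicates 1, 3 or 4 of attp2 at 5 weeks, which left a count of 1, and 0 were lower without the 4 libraries with gut transcripts.

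The summed level of oxidative phosphorylation genes was 13300, 13800, 13300, 13700 and 13000 CPM in hearts labelled LamC RNAi, against 11500, 11900, 12300, 12000 and 11300 CPM in attp2 at 5 weeks and 14800, 15500, 16400, 16200 and 15400 CPM in attp2 at 1 week. Again the hearts labelled LamC RNAi lay between both attp2 ages without overlap. In the comparison with attp2 at 1 week, which shares their libraries, 0 of the 69 genes were higher and 25 lower (against 1.54% lower over all genes, median −0.23). The 26 higher calls fell to 13 without the 4 libraries with gut transcripts and to 17 without replicate 5 of attp2 at 5 weeks. Of 18 TCA cycle genes 12 were higher and 1 lower (median 0.29), and 4 were higher without those 4 libraries. The 72.2% called in either direction compares with 19.2% over all genes. Acon, the mitochondrial aconitase, had 567, 615, 620, 658 and 585 CPM in hearts labelled LamC RNAi, against 431, 533, 445, 435 and 422 CPM in attp2 at 5 weeks (log2 fold change 0.43 ± 0.07, adjusted p = 0.00149) and 717 to 808 CPM in attp2 at 1 week. CG11876, the pyruvate dehydrogenase beta subunit (Pdhb), differed by 0.32 ± 0.07 against 5 weeks and by −0.33 against 1 week (adjusted p = 0.00438 and 0.0204). The isocitrate dehydrogenase genes l(1)G0156 (Idh3a) and CG6439 (Idh3b) were at 0.47 ± 0.08 and 0.32 ± 0.06 against 5 weeks, and Sucb was the lower one (−0.53 ± 0.13).

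Of 25 glycolysis and sugar store genes 5 were higher and 0 lower (median 0.33), and 0 were higher without the 4 libraries with gut transcripts. The 20% called higher compares with 10.1% over all genes. The count of higher genes was 2 without replicate 5, and 13 without replicate 2, of attp2 at 5 weeks, and 8 or 3 without replicate 1 or 4 labelled LamC RNAi; 1 was lower without the last. Tps1, which makes the blood sugar trehalose, averaged 2853 ± 369 CPM in hearts labelled LamC RNAi and 1678 ± 524 CPM in attp2 at 5 weeks (log2 fold change 0.77 ± 0.19, adjusted p = 0.0121), and phosphofructokinase (Pfk) 184 ± 16.7 and 144 ± 19.8 CPM (0.36 ± 0.09, adjusted p = 0.0101). Of 34 lipid metabolism genes 9 were higher and 3 lower (median 0.29), 35.3% in all against 19.2% over all genes. FASN1, fatty acid synthase, had 4960, 5000, 7690, 6820 and 3890 CPM in hearts labelled LamC RNAi, against 1730, 3790, 2170, 2980 and 2030 CPM in attp2 at 5 weeks (log2 fold change 1.16 ± 0.23, adjusted p = 0.00367). Npc2a, a sterol-binding protein gene, had 142, 150, 138, 155 and 185 CPM in hearts labelled LamC RNAi, against 92.7, 73.8, 99.5, 99.1 and 81.6 CPM in attp2 at 5 weeks (log2 fold change 0.79 ± 0.10, adjusted p = 1.8e-04), and was also above the 95.1 to 119 CPM of attp2 at 1 week (0.56, adjusted p = 0.0113). Lsd-1, a lipid droplet protein gene, was higher by 0.74 ± 0.15, and Acox57D-p, a peroxisomal acyl-CoA oxidase gene, lower (−0.63 ± 0.11). The lipid count of 9 was 3 without the 4 libraries with gut transcripts, and 5, 16, 4 and 5 without replicates 1, 2, 3 and 5 of attp2 at 5 weeks. The 3 lower became 1 without replicate 3 labelled LamC RNAi or replicate 5 of attp2 at 5 weeks.

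Fat body markers moved with these genes in part. Of 16 tested, 3 were higher (Lsp2, FASN1 and Lsd-1), 18.8% against 10.1% over all genes. Replicate 2 of attp2 at 5 weeks, with a sum of 91100 CPM, lay within the range of the hearts labelled LamC RNAi. Lsp2, a larval serum storage protein gene, was at 3.58 ± 1.10 (adjusted p = 0.0349), and lost its call without replicates 3 or 4 labelled LamC RNAi or replicates 1, 2 or 5 of attp2 at 5 weeks (0.0551 to 0.0782). It was at 2.89 without replicate 3 labelled LamC RNAi and at 4.36 without replicate 4 of attp2 at 5 weeks. Lsp1beta (chromosome 2L from 898500 to 901316), another storage protein gene, had 39.1, 53.3, 643, 304 and 232 CPM in hearts labelled LamC RNAi, against 0.832, 5.23, 9.23, 7.44 and 1.39 CPM in attp2 at 5 weeks. Libraries differed more than 10 times within the first group, yet its lowest lay above the highest of the second (log2 fold change 5.72 ± 1.00, adjusted p = 0.00149; 5.03 without replicate 3 labelled LamC RNAi). The most abundant fat body marker, the yolk protein gene Yp1, had 18500 to 38400 CPM in hearts labelled LamC RNAi and 5460 to 31900 CPM in attp2 at 5 weeks, and did not pass (1.13 ± 0.45, adjusted p = 0.0905). Without replicate 2 of attp2 at 5 weeks it was called, at 1.76 (adjusted p = 0.00412). Of 18 oenocyte hydrocarbon genes 2 were higher and 0 lower. The 11.1% called higher was near the 10.1% over all genes. The 2 were Fad2 (0.92 ± 0.24, adjusted p = 0.0149) and Desat1 (0.39 ± 0.11, adjusted p = 0.0243). Both are desaturases. Desat1 lost its call without replicate 4 labelled LamC RNAi (0.0534) or replicates 1, 3 or 5 of attp2 at 5 weeks (0.0590, 0.0503 and 0.0587). The top oenocyte gene Cyp4g1 was not called (−0.17 ± 0.23, adjusted p = 0.635).

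Among genes of protein turnover and detoxification, proteasome and glutathione transferase genes were called lower more often than the 9.15% over all genes, and autophagy genes were near it. Of 31 proteasome genes 18 were lower and 0 higher, and all 31 had negative log2 fold changes, with a median of −0.46. Rpt6, an ATPase subunit of the regulatory particle, had 249, 246, 189, 290 and 224 CPM in hearts labelled LamC RNAi, against 370, 271, 389, 419 and 401 CPM in attp2 at 5 weeks (log2 fold change −0.63 ± 0.15, adjusted p = 0.0101). The groups overlapped, and replicate 3 labelled LamC RNAi was the lowest library. Prosbeta4 and Prosbeta2, subunits of the core particle, were at −0.63 ± 0.15 and −0.59 ± 0.16, and Rpn6, a lid subunit, at −0.56 ± 0.13. The count moved widely with the libraries and settings used. It was 0 without the 4 libraries with gut transcripts and 3 with the heat shock covariate, and 11, 10, 6, 27 and 4 without replicates 1, 2, 3, 4 and 5 labelled LamC RNAi. It was 10, 29, 8, 6 and 4 without replicates 1, 2, 3, 4 and 5 of attp2 at 5 weeks. Attp2 at 1 week summed to 6750 to 10900 CPM, which spans most of the range of both groups.

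Of 26 autophagy genes 3 were lower and 0 higher (median −0.10). ref(2)P (chromosome 2L from 19542468 to 19545548), the fly p62 receptor that brings cargo to autophagosomes and is itself degraded there, had 2460, 2480, 1330, 2200 and 2200 CPM in hearts labelled LamC RNAi, against 4360, 3490, 4760, 5220 and 4940 CPM in attp2 at 5 weeks. The groups were far apart (log2 fold change −1.09 ± 0.16, adjusted p = 4.0e-04), and attp2 at 1 week had 2380 to 2990 CPM. Atg5 was at −0.35 ± 0.09 (adjusted p = 0.014), and Atg8a at −0.30 ± 0.09 (adjusted p = 0.0277); Atg8a lost its call without replicates 1, 4 or 5 of attp2 at 5 weeks (0.0672, 0.0512 and 0.0598). Without the 4 libraries with gut transcripts the count was 1. Autophagy genes called higher numbered 1, 2 and 1 without replicates 1, 3 and 4 labelled LamC RNAi. Of 50 antioxidant and glutathione transferase genes 15 were lower and 1 higher (median −0.36), and 9 were lower without those libraries. The 1 higher call was lost without replicates 1, 3, 4 or 5 labelled LamC RNAi or 1, 4 or 5 of attp2 at 5 weeks, and became 2 without replicate 3 of attp2 at 5 weeks. GstT1 had 40.5, 36.9, 36.1, 41.7 and 38.1 CPM in hearts labelled LamC RNAi, against 60, 45.4, 61.9, 65.2 and 61.6 CPM in attp2 at 5 weeks (log2 fold change −0.61 ± 0.10, adjusted p = 7.1e-04). GstO3 had 96.2, 115, 68.3, 107 and 88.9 CPM in hearts labelled LamC RNAi, against 168, 147, 221, 207 and 206 CPM in attp2 at 5 weeks (log2 fold change −1.0 ± 0.14, adjusted p = 2.7e-04). Neither overlapped. GstE1 was at −1.20 ± 0.22 and GstD5 at −2.27 ± 0.58, members of gene clusters whose copies may share reads. The detoxification genes Cyp6a8 and Ugt36Ba (current symbol Ugt37C2) were lower by more, at −4.09 ± 0.68 and −4.14 ± 0.87 (adjusted p = 0.00102 and 0.00476), and Ugt36Ba was at −4.74 without replicate 4 labelled LamC RNAi.

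Of 27 chaperone and heat shock genes 3 were higher and 1 lower, near or below the 10.1% and 9.15% over all genes. l(2)efl, a small heat shock protein of the alpha-crystallin family, had 212, 269, 232, 305 and 287 CPM in hearts labelled LamC RNAi, against 102, 123, 85.7, 85.3 and 78.1 CPM in attp2 at 5 weeks (log2 fold change 1.46 ± 0.14, adjusted p = 1.4e-05). Hsc70-2 was higher by 1.38 ± 0.18, and Hop, the cochaperone that joins Hsp70 and Hsp90, was lower (−0.83 ± 0.14, adjusted p = 0.00126). The 3 became 5 without replicate 2 of attp2 at 5 weeks, and the 1 became 2 without replicates 2 or 3 labelled LamC RNAi, replicate 3 of attp2 at 5 weeks or the 4 libraries with gut transcripts. The summed level of the stress-induced heat shock genes was 998, 950, 397, 494 and 208 CPM in hearts labelled LamC RNAi and 140, 1120, 128, 200 and 212 CPM in attp2 at 5 weeks. Replicates 1 to 4 labelled LamC RNAi were above every 5-week library but replicate 2, and replicate 5 labelled LamC RNAi lay among the low 5-week libraries.

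Of 84 cytosolic ribosomal protein genes 18 were higher and 1 lower (median 0.19), against 10.1% higher and 9.15% lower over all genes. In either direction 22.6% were called, against 19.2% over all genes. Of the 84, 81 had positive log2 fold changes, against 51.5% of all genes. DESeq2 called 36 higher and 1 lower. RpL5 averaged 2608 ± 171 CPM in hearts labelled LamC RNAi and 1911 ± 130.0 CPM in attp2 at 5 weeks (log2 fold change 0.45 ± 0.08, adjusted p = 0.00149). RpS15Ab had 25.1, 22.1, 23.9, 23.9 and 24.8 CPM in hearts labelled LamC RNAi, against 35.6, 35.8, 30.3, 35.2 and 34.2 CPM in attp2 at 5 weeks. It was the lower one (−0.51 ± 0.06, adjusted p = 1.1e-04), was also below attp2 at 1 week (−0.36, adjusted p = 0.00928) and has a close copy, RpS15Aa. The count of 18 was 1 without the 4 libraries with gut transcripts, and 9, 9 and 10 without replicates 1, 2 and 3 labelled LamC RNAi. It was 38, 9, 9 and 7 without replicates 2, 3, 4 and 5 of attp2 at 5 weeks. Of 72 mitochondrial ribosomal protein genes 2 were higher and 1 lower (median 0.03), below the shares over all genes of 10.1% and 9.15%. The 2 became 1 without replicates 1 or 3 labelled LamC RNAi or 1, 2 or 4 of attp2 at 5 weeks. The 1 became 0, 2 and 0 without replicates 2, 3 and 4 labelled LamC RNAi and 3, 0 and 0 without replicates 2, 3 and 4 of attp2 at 5 weeks.

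Most genes of the nuclear envelope were not called. Of 36 tested, 7 were higher and 2 lower, 25% in all against 19.2% over all genes, and 30 had positive log2 fold changes (median 0.21); 5 and 0 passed without the 4 libraries with gut transcripts. klar, a KASH protein gene that links nuclei to microtubules, had 106, 118, 148, 115 and 115 CPM in hearts labelled LamC RNAi, against 69, 79, 94.4, 77 and 75.8 CPM in attp2 at 5 weeks (log2 fold change 0.61 ± 0.10, adjusted p = 7.6e-04). Msp300, the giant nesprin that anchors muscle nuclei, had 730, 867, 804, 941 and 813 CPM in hearts labelled LamC RNAi, against 568, 676, 614, 548 and 585 CPM in attp2 at 5 weeks (log2 fold change 0.47 ± 0.09, adjusted p = 0.00337). Neither gene overlapped between the groups. LBR, the lamin B receptor, differed by 0.85 ± 0.22, and the nuclear pore genes Nup44A and Nup358 by 0.59 ± 0.11 and 0.36 ± 0.08 on the log2 scale. bocks, a LEM domain protein gene, was lower (−0.41 ± 0.10, adjusted p = 0.00882). The 2 lower became 1 without replicates 1, 4 or 5 labelled LamC RNAi or replicates 1 or 5 of attp2 at 5 weeks.

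Of 30 heterochromatin and Polycomb genes 3 were higher and 2 lower (median 0.08), near the shares over all genes. phol and pho, which recruit Polycomb complexes to DNA, were called in opposite directions. phol had 20.4 to 28.1 CPM in hearts labelled LamC RNAi and 16.7 to 21.3 CPM in attp2 at 5 weeks (log2 fold change 0.42 ± 0.11, adjusted p = 0.0125), and pho 23.5 to 30.7 and 29.5 to 39.9 CPM (−0.41 ± 0.10, adjusted p = 0.0142). Both pairs of ranges overlapped. pho lies on chromosome 4. esc, a subunit of the complex that methylates histone H3, was higher (1.02 ± 0.27, adjusted p = 0.0171). The 3 became 6 without replicate 1 labelled LamC RNAi and 1 without the 4 libraries with gut transcripts. The 2 became 1 without those 4, without replicates 1, 2 or 3 labelled LamC RNAi or without replicate 1 of attp2 at 5 weeks.

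A few genes stood apart from attp2 at both ages. phr (chromosome 2R from 7825289 to 7827319), the photolyase that repairs ultraviolet damage to DNA, had 14.9, 12.8, 13.8, 13.1 and 13.9 CPM in hearts labelled LamC RNAi, against 1.04, 1.15, 0.831, 1.49 and 1.06 CPM in attp2 at 5 weeks and 1.17, 1.2, 1.18, 0.862 and 1.3 CPM in attp2 at 1 week. The RNAi libraries were alike, and no attp2 library came near them. The log2 fold change was 3.62 ± 0.16 against 5 weeks and 3.58 against 1 week (adjusted p = 2.3e-08 and 2.7e-08), while the attp2 ages differed by −0.04 (adjusted p = 0.886). CG10936 (chromosome 2R from 17604951 to 17639138) had 23.7, 22.1, 14.5, 21.6 and 20.2 CPM in hearts labelled LamC RNAi, against 1.83, 3.59, 1.8, 1.68 and 2.18 CPM in attp2 at 5 weeks (log2 fold change 3.20 ± 0.22, adjusted p = 1.0e-06). Attp2 at 1 week had 2.36 to 3.72 CPM (log2 fold change 2.68, adjusted p = 1.4e-05). CG15711 (chromosome 2R from 16363551 to 16365895) had 19.1, 5.19, 7.2, 15.4 and 8.16 CPM in hearts labelled LamC RNAi, against 0.0849, 1.5, 2.61, 0.56 and 2.08 CPM in attp2 at 5 weeks and 0.0252 to 0.21 CPM in attp2 at 1 week. It was also called between the attp2 ages (log2 fold change 3.13, adjusted p = 0.00888), and it was above attp2 at 5 weeks by 3.01 ± 0.71 (adjusted p = 0.00882) and above attp2 at 1 week by 6.14 (adjusted p = 0.00162). All 3 lie on arm 2R, and effects of the RNAi and of other differences between the strains cannot be told apart.

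CG4291 (chromosome 2L from 851251 to 852730) stood apart in the other direction. It had 6.87, 10.1, 16.5, 7.7 and 8.07 CPM in hearts labelled LamC RNAi, against 163, 171, 137, 172 and 194 CPM in attp2 at 5 weeks and 37.7, 39.5, 33.3, 39.8 and 39.6 CPM in attp2 at 1 week. The 3 groups did not overlap. The log2 fold change was −4.09 ± 0.22 against 5 weeks and −1.95 against 1 week (adjusted p = 1.2e-07 and 1.8e-04), and the attp2 ages differed by 2.14 (adjusted p = 1.7e-05).

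Of the 14 genes at the negative end, only CG4291 was also called lower against attp2 at 1 week. CG33970 (current symbol osy), an ABC transporter gene, had 1.87, 1.01, 2.68, 4.1 and 0.825 CPM in hearts labelled LamC RNAi, against 68.7, 44.3, 81.4, 90.8 and 90.7 CPM in attp2 at 5 weeks (log2 fold change −5.16 ± 0.46, adjusted p = 8.3e-06), and 1.05 to 2.63 CPM in attp2 at 1 week. The genes CG15239, CG32259, CG42246 and CG43920 ranged over 0 to 0.564, 0.303 to 1.1, 0.613 to 1.57 and 0.421 to 1.49 CPM in hearts labelled LamC RNAi. They ranged over 3.79 to 20.2, 14.6 to 49.2, 17.1 to 37.1 and 1.95 to 21.5 CPM in attp2 at 5 weeks, with log2 fold changes of −5.87, −5.35, −4.40 and −3.77, and CG15239 was at −6.50 without replicate 1 labelled LamC RNAi. Of 24 DNA replication and repair genes 1, phr, was higher and 3 were lower, 16.7% in all against 19.2% over all genes. The 1 became 2 without replicates 1 or 2 labelled LamC RNAi or replicate 2 of attp2 at 5 weeks, and 3 without the 4 libraries with gut transcripts. The 3 became 6 without those 4 or without replicate 3 labelled LamC RNAi. DNApol-delta (current symbol PolD1), the catalytic subunit of a replicative polymerase, had 5.58, 5.51, 13.7, 5.58 and 12.5 CPM in hearts labelled LamC RNAi, against 46.9, 65.9, 85.1, 38.2 and 26 CPM in attp2 at 5 weeks (log2 fold change −2.61 ± 0.35, adjusted p = 2.3e-04), and 5.05 to 7.7 CPM in attp2 at 1 week. Ku80, which holds broken DNA ends for joining, had 15.2, 12.2, 13.1, 13.5 and 18.5 CPM in hearts labelled LamC RNAi, against 31.3, 27.4, 24.4, 24.1 and 29.2 CPM in attp2 at 5 weeks (log2 fold change −0.91 ± 0.14, adjusted p = 7.0e-04). Both were higher in every 5-week library than in any of the hearts labelled LamC RNAi. The overlap of these genes with neighbours on either strand was not checked.

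Some signalling genes of Notch and the EGF receptor were higher. Of 22 genes of the Notch, Dpp and EGF receptor pathways 7 were higher, 1 lower and 14 not called, against 10.1% higher and 9.15% lower over all genes (median 0.20). N, the Notch receptor, had 20.8, 30.9, 39.4, 40.7 and 18.5 CPM in hearts labelled LamC RNAi, against 3.21, 6.54, 7.03, 5.37 and 4.92 CPM in attp2 at 5 weeks (log2 fold change 2.47 ± 0.26, adjusted p = 3.5e-05), and 16.2 to 25.2 CPM in attp2 at 1 week. Its target E(spl)mbeta-HLH differed by 1.90 ± 0.26 on the log2 scale (adjusted p = 2.3e-04). kek1, an inhibitor of the EGF receptor, had 18.2, 31.2, 19.1, 23.4 and 12.7 CPM in hearts labelled LamC RNAi, against 2.82, 4.28, 2.45, 2.33 and 3.02 CPM in attp2 at 5 weeks (log2 fold change 2.81 ± 0.27, adjusted p = 1.5e-05). N and kek1 did not overlap between the groups. sty, the sprouty inhibitor, was higher (0.72 ± 0.16), and vn, an EGF receptor ligand, was the lower one (−0.52 ± 0.17, adjusted p = 0.0494). vn lost its call without replicates 1, 2, 3 or 4 labelled LamC RNAi or 1, 3 or 5 of attp2 at 5 weeks (0.0752 to 0.124).

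Insulin, AKH and TOR genes were called about as often as all genes (10.1% higher and 9.15% lower). Of 21, 3 were higher, or 5 without replicate 3 labelled LamC RNAi, and 2 were lower, or 1 without replicate 4 labelled LamC RNAi, replicates 4 or 5 of attp2 at 5 weeks or the 4 libraries with gut transcripts. foxo, the transcription factor held back by insulin signalling, had 81.7 to 93.9 CPM in hearts labelled LamC RNAi and 57.5 to 71.2 CPM in attp2 at 5 weeks (log2 fold change 0.42 ± 0.07, adjusted p = 0.00157), without overlap. The stress-induced TOR inhibitor Sesn was at 0.57 ± 0.10, and the kinase gene Akt1 (current symbol Akt) was lower (−0.31 ± 0.08, adjusted p = 0.0124). Of 27 cuticle protein genes 8 were higher and 5 lower, 48.1% in all against 19.2% over all genes. Cpr49Ae and its neighbour Cpr49Ab were higher (3.62 ± 0.69 and 2.47 ± 0.53, the first at 4.59 without replicate 2 of attp2 at 5 weeks), and Cpr49Ac from the same cluster was lower (−2.37 ± 0.54, adjusted p = 0.00763). The 8 became 5 without replicate 1 of attp2 at 5 weeks. The 5 became 3 without replicates 3 or 4 labelled LamC RNAi, without replicates 1 or 5 of attp2 at 5 weeks, and without the 4 libraries with gut transcripts. Among 10 Turandot and JAK/STAT genes 30% were called in either direction, against 19.2% over all genes. The receptor gene dome was lower (−0.46 ± 0.09, adjusted p = 0.00388), and 2 were higher. One of these, the stress-induced secreted protein gene TotC, had 94.8, 52.9, 20.1, 6.51 and 708 CPM in hearts labelled LamC RNAi, with replicate 5 far above the rest, against 13 to 28.1 CPM in attp2 at 5 weeks. Without that replicate its log2 fold change was 0.99 in place of 3.01, with an adjusted p of 0.287, and the call was also lost without replicate 1 labelled LamC RNAi or any 1 of the 5 libraries of attp2 at 5 weeks (0.0514 to 0.0892). The 2 higher calls became 0 without replicate 1 labelled LamC RNAi or replicates 1, 3 or 5 of attp2 at 5 weeks, and 1 without replicate 5 labelled LamC RNAi or replicate 4 of attp2 at 5 weeks. CG14523 (current symbol Nepl19), a neprilysin-like gene, had 21.4 to 35.9 CPM in hearts labelled LamC RNAi and 3.99 to 7.65 CPM in attp2 at 5 weeks (log2 fold change 2.23 ± 0.18, adjusted p = 3.6e-06).

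Of 10 circadian clock genes 0 passed edgeR's test. The blue light receptor cry came closest (0.43 ± 0.15, adjusted p = 0.0574) and passed without replicate 3 labelled LamC RNAi (0.0153) or replicate 2 of attp2 at 5 weeks (0.0405). Another was lower without replicates 1 or 2 of attp2 at 5 weeks. With no adjustment 3 of the 10 (cry, cwo and cyc) had a p under 0.05, and DESeq2 called 1 higher and 2 lower. tim, a clock gene whose transcript cycles over the day, had 203, 160, 429, 815 and 177 CPM in hearts labelled LamC RNAi and 155, 180, 574, 660 and 640 CPM in attp2 at 5 weeks, which splits each group into low and high libraries. Replicates 1 and 2 were low and replicates 3 and 4 high in both groups and in attp2 at 1 week (182, 186, 654, 616 and 638 CPM); replicate 5 was low only in hearts labelled LamC RNAi. With tim as a covariate 1107 genes were higher and 1018 lower. The sources used here do not give the time of day of dissection.

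Marker lists of the remaining cell types are set against 10.1% called higher and 9.15% lower over all genes. The neuron, Malpighian tubule and enteroendocrine lists had 11.1%, 12.5% and 20% called, 1 gene each, and the gut list 4%. None of 9 pericardial nephrocyte genes was called by edgeR, 2 (Klf15 and mgl) had an unadjusted p under 0.05, and DESeq2 called 1 lower (summed level 5900 to 11000 CPM in hearts labelled LamC RNAi and 3910 to 8950 CPM in attp2 at 5 weeks). The most abundant, the endocytic receptor gene Cubn, was at 0.31 ± 0.30 (adjusted p = 0.492). Of 9 neuron genes 1, Syt1, was higher (0.87 ± 0.24), a call lost without replicate 1 labelled LamC RNAi (0.0515) or replicate 1 of attp2 at 5 weeks (0.0509). Of 8 Malpighian tubule genes 1, NtR, was higher (1.01 ± 0.15, adjusted p = 5.6e-04) and made up most of the list's sum of 397 to 636 CPM in hearts labelled LamC RNAi and 224 to 364 CPM in attp2 at 5 weeks. These sums did not overlap and passed (log2 difference 0.81, adjusted exact permutation p = 0.0206). Without NtR they were 9.9 to 63.2 CPM in hearts labelled LamC RNAi and 9.24 to 108 CPM in attp2 at 5 weeks, with overlap (log2 difference −0.95, adjusted p = 0.328). Of 5 enteroendocrine genes 1, the peptide hormone gene CCHa2, was higher (0.98 ± 0.27, adjusted p = 0.0195). None of 23 ovary genes and 0 of 2 male tract genes passed edgeR's test, where 2 (aub and orb) and 1 (Est-6) had an unadjusted p under 0.05 and DESeq2 called 0 and 1. The sums of the male tract and enteroendocrine lists differed by 1.32 and 0.54 on the log2 scale (adjusted exact permutation p = 0.0645 for both) and stopped overlapping without replicate 2 of attp2 at 5 weeks (adjusted exact permutation p = 0.0129). Est-6 made up nearly all of the male tract sum. Without it that sum was 0.219 to 0.796 CPM in hearts labelled LamC RNAi and 0.272 to 0.48 CPM in attp2 at 5 weeks. These overlapped (log2 difference 0.18, adjusted exact permutation p = 0.206). Without its most abundant gene, pros, the enteroendocrine sum overlapped too (log2 difference 0.71, adjusted exact permutation p = 0.138). Of 25 gut genes 1, the lipase gene mag, was lower, at 0.151 CPM in hearts labelled LamC RNAi and 0.826 CPM in attp2 at 5 weeks. It had a log2 fold change of −2.42 ± 0.71, or −1.61 without replicate 3 of attp2 at 5 weeks, and lost its call without any of replicates 2, 3 and 5 labelled LamC RNAi or 3 and 5 of attp2 at 5 weeks (0.0539 to 0.104).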

How the data were processed

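RNA of dissected hearts was sequenced from TruSeq Stranded mRNA libraries, per the labels' protocols. The authors deposited raw counts per gene symbol for the 15 attp2 and LamC RNAi libraries, used here as they stand. Cutadapt, STAR, DESeq2 and dm6 are named in the submitters' processing notes. The sources used here give no versions, read counter, strand setting or annotation, so near-identical genes, and genes that overlap on either strand, may share reads.

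The 3 groups entered 1 edgeR 4.0.16 quasi-likelihood fit in R 4.3.3 (filterByExpr, TMM, 10044 of 17104 symbols, Benjamini-Hochberg adjustment, threshold 0.05, two-sided), from which the contrast was taken. Every adjusted p of a gene comes from it unless DESeq2 (1.42.0, an alternative) is named. SEs were computed as the absolute log2 fold change over the square root of F. Marker sums were compared by exact permutation. Whether the libraries of a group come from separate animals is not stated in the labels; p-values therefore cover only the spread between these libraries, which may be technical. On data simulated for this comparison over 9925 genes, 49.5% of genes changed by a log2 fold change of 1 and 81.8% of those changed by 2 were called, with 3 unchanged genes called.

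The comparison, the gene lists and the tests were chosen with earlier results of these data known. Genes are named by rule: LamC and Lam, the 14 largest differences in each direction among called genes without overlap and with at least 10 CPM in the higher group, up to 4 called genes of smallest p per list, and per marker list the most abundant member and up to 2 called. Other list members are named to fill out a group and were chosen after their values were seen. Positions are from the BDGP6.54 annotation (dm6 coordinates, 1-based), where 13264 symbols matched directly and 3700 through an older symbol, while 59 were ambiguous and 81 had no match. Every pair of libraries of a group differed beyond sampling noise (chi-square per gene at least 62.9, where noise gives about 1). Deviations of same-numbered libraries correlated above 0.1 in 4 of 5 pairs and at −0.101 in the other, and the labels do not tie the numbers to a shared day or batch, so the numbers were not taken to pair the libraries. None of the 111 histone symbols was tested, for want of counts.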

Additional observations from a re-analysis of the deposited data

Results flagged for a closer look

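In 352 groups of 5 libraries (176 named genes in hearts labelled LamC RNAi and in attp2 at 5 weeks), 33 had 1 library set apart from the other 4 by a gap of over 0.71 of the whole range; chance gives about 1 in 20, or 17.6. No explanation was weighed.

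Replicate 3 labelled LamC RNAi, the library with gut and ovary transcripts, was set apart in 11 genes. It was highest for klar (148 CPM, others 106 to 118), Nup358 (194 CPM, others 140 to 151), pho (30.7 CPM, others 23.5 to 25) and the trypsin gene alphaTry (171 CPM, others 1.11 to 4.41). It was also highest for the gap junction genes Inx2 (55.5 CPM, others 26.6 to 30.6) and ogre (70.5 CPM, others 39.4 to 46.3), and for Ork1 (99.9 CPM, others 44.9 to 59.7). It was lowest for CG42246 (0.613 CPM, others 1.3 to 1.57), ref(2)P (1330 CPM, others 2200 to 2480), Akt1 (127 CPM, others 151 to 160) and the synaptic gene Syx1A (56.2 CPM, others 77.3 to 85.7). Replicate 2 labelled LamC RNAi was highest for Def (1.05 CPM, others 0.0957 to 0.299) and the cuticle gene Cpr47Ef (1.49 CPM, others 0.757 to 0.954). Replicate 4 was highest for Ugt36Ba (1.72 CPM, others 0.323 to 0.728) and Act87E (211 CPM, others 137 to 150), and replicate 5 for TotC (708 CPM, others 6.51 to 94.8), CG4096 (20.9 CPM, others 7.95 to 10.6) and GstE11 (20.6 CPM, others 12.6 to 14.3).

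Replicate 2 of attp2 at 5 weeks, with the highest fat body and heat shock sums of its group, was set apart in 9 genes. It was highest for PPO1 (76.8 CPM, others 4.88 to 10.5), PPO2 (72.5 CPM, others 7.05 to 12.5), lz (2.04 CPM, others 0.221 to 0.511), lectin-33A (230 CPM, others 63.6 to 95), Est-6 (191 CPM, others 39.4 to 60.8) and Acon (533 CPM, others 422 to 445). It was also highest for Cpr49Ae (4.27 CPM, others 0.337 to 1.43) and CG10936 (3.59 CPM, others 1.68 to 2.18), and lowest for GstT1 (45.4 CPM, others 60 to 65.2). For all 9, that library lay nearer to the hearts labelled LamC RNAi than the other 4 of its group did. Replicate 3 of attp2 at 5 weeks was highest for alphaTry (4280 CPM, others 0.944 to 181) and ND-B8 (0.116 CPM, others 0 to 0.0169), and lowest for Lsd-1 (212 CPM, others 337 to 376) and RpS15Ab (30.3 CPM, others 34.2 to 35.8). Replicate 5 of attp2 at 5 weeks was highest for NaCP60E (14.4 CPM, others 10.9 to 11.5), and replicate 1 of attp2 at 5 weeks lowest for slo (5.88 CPM, others 8.82 to 9.98).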

How the results depend on the processing

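Against 1011 higher and 919 lower genes, the counts were 999 and 930 with DESeq2 size factors, 1310 and 1240 with DESeq2 (304 genes without an adjusted p), 852 and 759 with no filter, 892 and 892 with a 5 CPM filter, and 665 and 833 with the 2 groups alone. They were 766 to 1116 higher and 691 to 1017 lower when each library was left out in turn, and 312 and 240 with a log2 fold change of at least 1. With the replicate number as a block they were 1194 and 1195, of which 1832 were called without it; deviations of same-numbered libraries correlated at 0.342, 0.325, 0.565, −0.101 and 0.167, and not every library correlated best with its own number. The block moved cytosolic ribosomal genes called higher to 37 in place of 18, glycolysis genes to 11 in place of 5, Toll and Imd genes to 6 in place of 3 and cardiac transcription factors to 6 in place of 3. It moved JAK/STAT and oenocyte genes called higher to 0 and 4 in place of 2 each, lipid and chaperone genes called lower to 5 in place of 3 and to 3 in place of 1, and 4 counts of 0 or 1 by 1. With the 2 groups alone, oxidative phosphorylation genes called higher numbered 15 in place of 26, and TCA cycle genes 7 in place of 12. Cytosolic ribosomal genes called higher numbered 5 in place of 18, glycolysis genes 2 in place of 5 and nuclear envelope genes 4 in place of 7. Sarcomere genes called higher stayed at 19, and proteasome genes called lower numbered 21 in place of 18. After the data were seen, 4 alternatives were added. Of these, 3 gave counts: without the 4 libraries with gut transcripts (661 and 640), with tim (1107 and 1018) and with the heat shock sum (915 and 811) as covariates.

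Leaving out single libraries moved LamC between −0.0365 and 0.232, and the heat shock covariate turned it to −0.117. Over the other named genes, 3039 values kept direction and side of the threshold, 248 lost and 15 gained a call and 11 turned direction. The 11 were uncalled genes. The ovary gene gus ran from −0.160 to 0.0800 over the left-out libraries, and was at 0.0210 and 0.0438 with the tim and heat shock covariates. alphaTry turned to 1.32 and tim to 0.351 with the heat shock covariate, and Hand turned to −0.000778 and tim to 0.0609 without the 4 libraries with gut transcripts. Without those 4, the nephrocyte, oenocyte and ovary sums turned to −0.0840, 0.0208 and −0.102. Of the named genes, 44 lost edgeR's call, with fewer libraries fitted. Among them were phol, srp, org-1, Pfk, Tps1, Gapdh1, Treh, Desat1, dome, hop, TotC, Rpt6, Rpn6, Prosbeta2 and Prosbeta4. Atg5, Atg8a, Syt1, mag, CCHa2, Act87E, ND-AGGG, Sucb, bocks, vn and shakB were also among the 44. Over the left-out libraries the neuron sum ran from −0.101 to 0.0250 and the ovary sum from −0.605 to 0.593. The fourth alternative left the most abundant gene out of each marker sum. The oenocyte, neuron and Malpighian tubule differences turned to 0.313, 0.227 and −0.946, and the heart muscle sum no longer passed (0.277). The causes were not tested. The exact test of a marker sum without the 4 libraries compares 4 with 3 and cannot pass the threshold. Whether depth or the spread between libraries limited precision was not tested.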
